A study of Diospyros kaki with 21 samples.

Results

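The comparison described here asked what 1-methylcyclopropene (1-MCP), which binds ethylene receptors and blocks the perception of ethylene, changed in the flesh of persimmon fruit that had also received a high CO2 treatment. Its members were 6 of the 21 RNA-seq libraries of the series, namely the 3 replicates (A, B and C) of the CO2+1-MCP treatment and the 3 of the CO2 treatment, all at 4 d. The fruit were mature 'Jingmianshi' persimmon (*Diospyros kaki*), an astringent cultivar of a polyploid species, in which many genes exist in several near-identical copies. The CO2 fruit were kept for 1 d in air-tight containers with high CO2, the CO2+1-MCP fruit were kept in the same way with 1-MCP added, and the untreated control (CK) was sealed in air, after which all were stored in air. The remaining libraries came from CK at 0 d, 1 d and 4 d and from both treatments at 1 d, each with 3 replicates that the study's methods call biological. Both groups compared therefore had a high CO2 treatment, sealing in containers and the storage time in common, and differed in 1-MCP. In the study's methods each treatment was a batch of fruit of its own. A difference between batches or containers therefore cannot be told apart from that of 1-MCP. Whether a replicate was a fruit or a pool of fruit was not given in the sources used here, so the p-values measure the spread between these samples.

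Persimmon is a climacteric fruit, in which ripening is driven by a burst of ethylene. Ethylene is made from S-adenosylmethionine by ACC synthase and ACC oxidase, and it is sensed by receptors that hold the pathway off until they bind it. Binding releases the factor EIN2, which stabilizes the transcription factors EIN3 and EIL, and these turn on ethylene response factors (ERFs) and ripening genes, including enzymes that loosen the pectin, hemicellulose and cellulose of the cell wall. High CO2 removes the astringency of persimmon by making its soluble tannins insoluble, and the fruit often soften quickly afterwards.

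The deposited tables gave, for each of 261970 unigenes (transcripts assembled from the reads without a genome), an estimated read count and an FPKM value, which is the number of fragments per kilobase of unigene, scaled to a fixed number of fragments per library. Total estimated counts were between 15261878 (CO2+1-MCP B) and 23871019 (CO2 C) for the 6 libraries. Functions were read from the deposited annotation, which held a best protein hit (NR description) for 147691 unigenes, a KEGG orthology (KO) number for 56852 and a Pfam domain for 105035. Unigenes with the same description may be alleles, isoforms or pieces of a single gene that share reads, so a value for any unigene of such a group is uncertain, and counts were also summed over all unigenes with the same annotation. In bulk flesh, fewer cells of a type and less RNA per cell cannot be told apart.

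Replicates of these 2 groups were less alike than those of the other 5 groups, where they correlated at 0.868 to 0.902, with the exception of CO2+1-MCP A and C, and CO2+1-MCP B stood furthest apart. The Spearman correlation of its unigene counts was 0.689 with replicate A and 0.653 with replicate C, while A and C correlated at 0.891. CO2 A correlated at 0.812 with CO2 B and at 0.795 with CO2 C, which was close to the 0.81 between B and C, so by this measure CO2 A did not stand apart from its group. These correlations are across unigenes, which are not independent replicates. CO2 A did stand apart in level, since it was the highest of the CO2 replicates for most of the ripening genes described here, and CO2 C was most often the lowest. CO2 C also correlated with CO2+1-MCP A (0.855) and CO2+1-MCP C (0.863) more closely than with CO2 A and CO2 B. The plot of replicate correlations shows that the gap of CO2+1-MCP B narrowed when counts were summed by KO number, where it correlated at 0.957 with A and 0.948 with C.

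**Figure D1:**
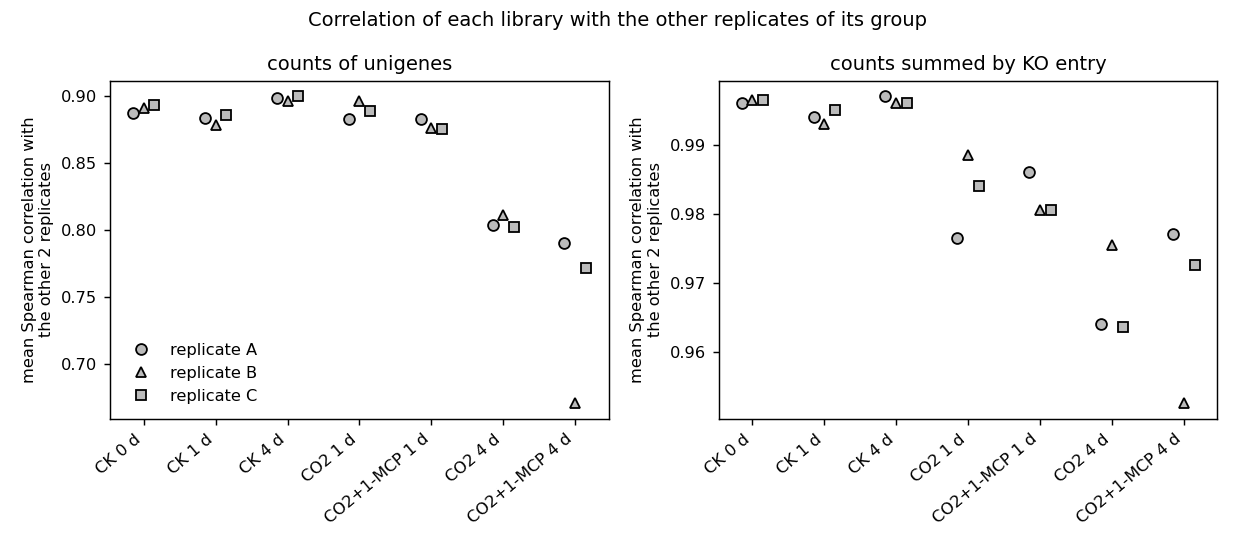
Mean Spearman correlation (y axis, no unit) of each library with the other 2 replicates of its group (x axis), for counts of unigenes (left) and for counts summed by KO number (right, with a different y range). Circles, triangles and squares are replicates A, B and C; the CK groups and both treatments at 1 d lie high, the CO2 4 d libraries lie near 0.8 in the left panel, and CO2+1-MCP 4 d B lies lowest in both panels (0.671 on the left).

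Nearly all unigenes that passed the test were lower in CO2+1-MCP. Of 62228 unigenes with enough reads to test, 188 (0.302%) were lower in CO2+1-MCP and 2 (0.00321%) were higher, at an adjusted p under 0.05 and a change of more than 5-fold (edgeR's quasi-likelihood test with Benjamini-Hochberg adjustment, as for all adjusted p-values given below unless another fit is named). Past an unadjusted p under 0.05 and 5-fold, 1678 (2.7%) were lower and 409 (0.657%) higher, whereas without a requirement on size or test more unigenes were higher without overlap between the libraries (5427, 8.72%) than lower (4692, 7.54%). The 188 unigenes had a median log2 fold change of -6.09, against 0.09 over all unigenes tested, and the 6 libraries did not overlap for any of them. Their summed FPKM was 38895, 17923 and 11617 in CO2 A, B and C, against 664, 702 and 680 in CO2+1-MCP A, B and C. In CK at 4 d the sum was 409, 393 and 390. For these unigenes the CO2+1-MCP sums lay far closer to the control than to CO2, but the gap to CO2 was set by their selection. Within the CO2 group replicate A was the highest for 182 of the 188, with a median ratio of 2.62 to the mean of B and C.

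The counts of calls changed with the estimate of spread between replicates and with the libraries included. With edgeR's older (legacy) dispersion estimate no unigene passed (3883 had an unadjusted p under 0.05, and the lowest adjusted p was 0.152). DESeq2 called 1240 lower (1.39%) and 174 higher (0.196%), a fit over all 7 groups called 1443 lower (1.59%) and 147 higher (0.162%), and each of these held all 188. Without CO2 A, 112 unigenes were called lower, and 187 of the 188 were still more than 5-fold lower. None was called without CO2 B or without any of the CO2+1-MCP replicates, and 375 were called lower without CO2 C. Without CO2+1-MCP B all 188 were still more than 5-fold lower, with adjusted p between 0.239 and 0.281. The 188 were selected in these same libraries for a change of more than 5-fold. That they kept it, or were held by fits with more calls, was therefore largely set by their selection.

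Of the genes of ethylene synthesis, 2 ACC synthase unigenes fell in CO2+1-MCP, while the most abundant ACC oxidase overlapped between the treatments. An ACC synthase unigene with a persimmon hit (Cluster-16487.3044), the enzyme of the rate-limiting step of ethylene synthesis, had 62.03, 26.54 and 19.43 FPKM in CO2 A, B and C, and 0.48, 0 and 0.34 FPKM in CO2+1-MCP A, B and C. All CO2 libraries were above all CO2+1-MCP libraries, and no read was assigned to it in CK at 4 d. Its log2 fold change was -7.21 ± 0.90 (SE, adjusted p = 0.0341), and a second ACC synthase unigene, Cluster-16487.217861, fell by 6.85 on the log2 scale (adjusted p = 0.0425). Of 7 ACC synthase unigenes tested, 2 were called lower and none higher, beside 0.302% and 0.00321% of all unigenes. Their median log2 fold change was -3.94, and it was -1.81 as the log2 ratio of mean FPKM with a pseudocount of 1. Summed over 18 unigenes, the KO entry for ACC synthase had 226, 123 and 65.4 CPM (counts scaled to a fixed library size) in CO2 and 16.5, 11.7 and 14.8 CPM in CO2+1-MCP, without overlap, and missed the test (log2 fold change -3.48, adjusted p = 0.0548). The most abundant ACC oxidase unigene (Cluster-16487.134139), the enzyme of the last step, had 1519.71, 498.16 and 596.19 FPKM in CO2 and 1070.6, 215.78 and 1593.32 FPKM in CO2+1-MCP. These ranges overlapped, and both lay above the 98.19 to 127.31 FPKM of CK. Summed by KO number, the log2 fold change of ACC oxidase was -0.25 (adjusted p = 0.852), and it turned to 0.47 without CO2 A and to 0.07 without CO2+1-MCP B. None of 13 ACC oxidase unigenes was called in either direction, beside 0.302% lower and 0.00321% higher of all unigenes. An unadjusted p under 0.05 with a change of more than 5-fold was found in 2 (15.4%), both lower. Of all unigenes tested 2.7% were lower and 0.657% higher by this measure.

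No receptor unigene passed the test in the fit of 6 libraries, although most were lower in CO2+1-MCP without overlap. An ethylene receptor unigene (Cluster-16487.69985) had 94.75, 53.2 and 57.29 FPKM in CO2 and 11.18, 4.53 and 8.71 FPKM in CO2+1-MCP, against 3.45 to 4.31 FPKM in CK. The groups did not overlap, but the unigene missed the threshold in the fit of 6 libraries (log2 fold change -3.27, adjusted p = 0.0518) and passed it in the fit over all 7 groups (adjusted p = 9.85e-05). The most abundant receptor, ethylene receptor 3 (Cluster-16487.122272), had 280.72, 147.88 and 190.57 FPKM in CO2 and 94.34, 62.38 and 90.96 FPKM in CO2+1-MCP. Again the groups did not overlap, with a log2 fold change of -1.55 (adjusted p = 0.163). Of 18 receptor unigenes tested, 12 were lower without overlap (7.54% of all unigenes tested were) and 1 was higher, and 8 had an unadjusted p under 0.05 with a change of more than 5-fold (2.7% of all tested). Summed by NR description, the persimmon ethylene receptor entry (log2 fold change -3.19, adjusted p = 0.0303) and the ethylene response sensor entry (log2 fold change -2.70, adjusted p = 0.029) both fell, whereas the KO entry for the receptor, summed over 20 unigenes, missed the test (log2 fold change -1.74, adjusted p = 0.0742). The description ethylene-overproduction protein 1, which rested on 1 unigene and in Arabidopsis names a protein that marks ACC synthase for degradation, also fell, from 215, 96.8 and 197 CPM in CO2 to 31.7, 18.2 and 37.4 CPM in CO2+1-MCP (adjusted p = 0.0358).

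Downstream of the receptors the members differed. An EIN3-binding F-box protein unigene (Cluster-16487.2870), of the family that targets EIN3 for degradation, had 27.59, 11.77 and 16.78 FPKM in CO2 and 0.40, 0.37 and 0.43 FPKM in CO2+1-MCP, and none in CK at 4 d. It fell by 5.76 on the log2 scale (adjusted p = 0.0289). Summed over 5 unigenes, the KO entry for EIN3-binding F-box protein had 520, 395 and 770 CPM in CO2 and 251, 175 and 269 CPM in CO2+1-MCP. CK had 199 to 215 CPM. The treatments did not overlap, but the entry missed the test (log2 fold change -1.42, adjusted p = 0.0824). Of 28 tested unigenes of CTR1, EIN2, EIN3/EIL and EIN3-binding F-box proteins, 1 was called lower, beside 0.302% of all unigenes. The EIN3-like factor EIL1 (Cluster-16487.107460) had 156.48, 141.47 and 149.27 FPKM in CO2 and 168.79, 86.65 and 173.41 FPKM in CO2+1-MCP, which overlapped each other and the 138.10 to 152.33 FPKM of CK. Here replicate B was the lowest of its group. Among the ERFs, ERF16 (Cluster-16487.217803) had 23.56, 11 and 5.26 FPKM in CO2 and 0.08, 0.18 and 0 FPKM in CO2+1-MCP. That is 558 reads against 3, a ratio of 163 after scaling by library size (exact interval for counting error only, at the 95% level, 55.7 to 795). ERF16 was the only member of the 173 tested AP2/ERF unigenes that was called, beside 0.302% of all unigenes called lower. The most abundant of that family, ERF3 (Cluster-16487.112976), had 434.36, 326.58 and 325.16 FPKM in CO2 against 265.38, 244.43 and 268.58 FPKM in CO2+1-MCP, without overlap (log2 fold change -0.68, adjusted p = 0.626).

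**Figure D2:**
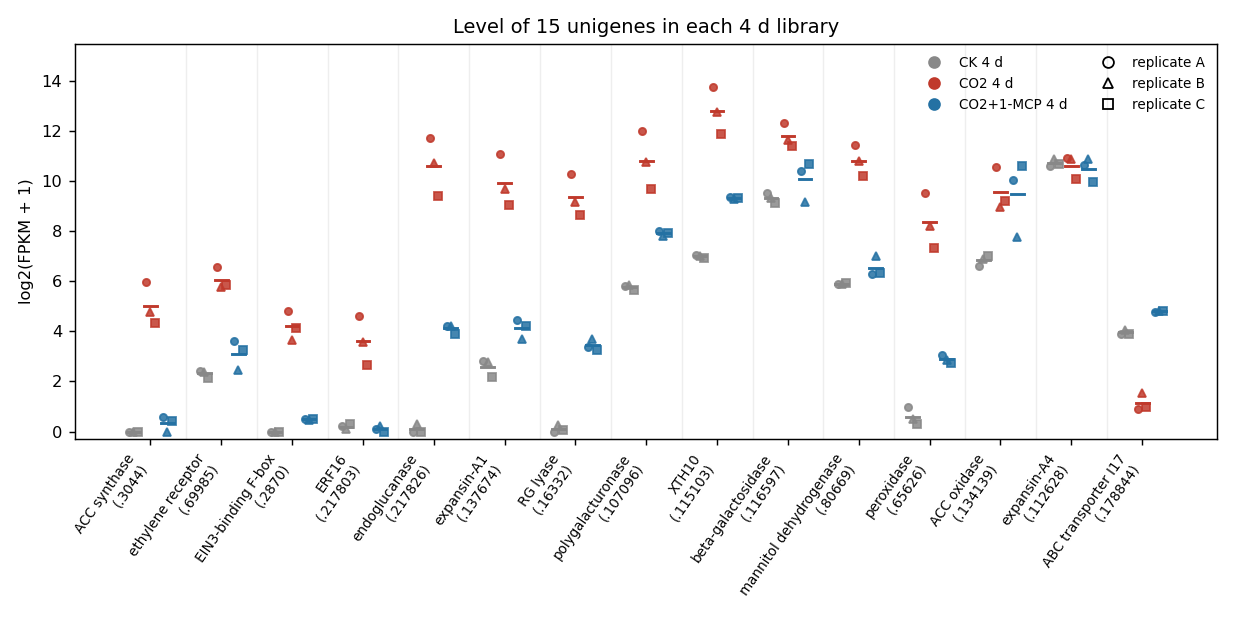
Level of 15 unigenes in the 9 libraries at 4 d, as log2(FPKM + 1) on the y axis, with the end of each unigene ID in brackets under its name on the x axis; grey is CK, red CO2 and blue CO2+1-MCP, circles, triangles and squares are replicates A, B and C, and bars are group means on the log2 scale. From ACC synthase to peroxidase the red points lie above the blue ones, ACC oxidase and expansin-A4 overlap, and only the ABC transporter has blue above red (26.83 to 27.47 against 0.87 to 1.89 FPKM).

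Enzymes that act on the cell wall were among the most abundant unigenes that fell. An endoglucanase (Cluster-16487.217826), of the family that cuts cellulose and related glucans, had 3377.56, 1727.44 and 683.76 FPKM in CO2 and 17.65, 17.71 and 14.07 FPKM in CO2+1-MCP. The CO2+1-MCP replicates agreed closely, and CK had at most 0.24 FPKM. Its log2 fold change was -7.12 ± 0.76 (SE, adjusted p = 0.0289). This unigene was the only one of 23 tested in its family that was called, beside 0.302% of all unigenes called lower. The most abundant member, Cluster-16487.110673, had 5434.04 to 7677.72 FPKM in CO2 and 3476.72 to 10659.31 FPKM in CO2+1-MCP, with overlap.

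Expansins, which loosen the wall without cutting it, fell in 5 of 35 unigenes tested, beside 0.302% of all unigenes. Expansin-A1 (Cluster-16487.137674) had 2171.38, 828.39 and 539.39 FPKM in CO2, and 21.22, 12.02 and 17.43 FPKM in CO2+1-MCP. CK had 3.50 to 6.15 FPKM, so the CO2+1-MCP libraries lay above the control and far below CO2 (log2 fold change -6.40 ± 0.72, SE, adjusted p = 0.0315). Expansin-A1-like unigenes Cluster-16487.137675 and Cluster-16487.165003 fell by 6.0 and 5.82 on the log2 scale, and since they carry the same kind of hit they may share reads with the first. Expansin-A4 (Cluster-16487.112628), the most abundant of the family, had 1936.80, 1887.09 and 1096.97 FPKM in CO2 and 1612.05, 1903.27 and 998.45 FPKM in CO2+1-MCP, and overlapped. In all, 17 of 35 expansins (48.6%) were lower without overlap and 2 (5.71%) were higher, beside 7.54% and 8.72% of all unigenes tested. The median log2 fold change of the expansins was -1.5.

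The families of pectin enzymes differed. Rhamnogalacturonan lyase cuts the backbone of the branched pectin rhamnogalacturonan I, and 5 of its 22 tested unigenes were called lower and none higher, beside 0.302% and 0.00321% of all unigenes. The most abundant (Cluster-16487.16332) had 1259.23, 586.46 and 403.81 FPKM in CO2 and 9.49, 11.85 and 8.5 FPKM in CO2+1-MCP. CK had at most 0.20 FPKM, below every CO2+1-MCP library (log2 fold change -6.47 ± 0.65, SE, adjusted p = 0.0289). Summed over its 47 unigenes, the KO entry for rhamnogalacturonan endolyase had 5890, 2530 and 1950 CPM in CO2, 85.4, 67.2 and 90.6 CPM in CO2+1-MCP and 40.3 to 46.9 CPM in CK (log2 fold change -5.63, adjusted p = 0.0198).

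Of 60 polygalacturonase unigenes tested, whose enzymes cut unbranched pectin, 1 was called lower and none higher, beside 0.302% and 0.00321% of all unigenes. The most abundant, Cluster-16487.107096, had 4131.95, 1733.16 and 830.03 FPKM in CO2 and 257.82, 227.37 and 244.87 FPKM in CO2+1-MCP, against 49.04 to 57.66 FPKM in CK. The 3 treatments thus did not overlap, but the spread within CO2 left the adjusted p at 0.095 (log2 fold change -3.47), with 0.000238 in the fit over all 7 groups. The called member, Cluster-16487.150594, had 59.19, 14.67 and 9.03 FPKM in CO2 and 0.45, 0 and 0.34 FPKM in CO2+1-MCP (adjusted p = 0.0497). An unadjusted p under 0.05 with a change of more than 5-fold was found in 15 of the 60, all of them lower, beside 2.7% lower and 0.657% higher of all unigenes tested. Without overlap 16 (26.7%) were lower and 7 (11.7%) higher, beside 7.54% and 8.72%, and the median log2 fold change was 0.16. The summed FPKM of the family was 15617, 6340 and 3615 in CO2 and 1149, 934 and 1110 in CO2+1-MCP.

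Of 37 pectin methylesterase unigenes tested, whose enzymes remove methyl groups from pectin, 1 was called lower and none higher, beside 0.302% and 0.00321% of all unigenes. Pectinesterase 1 (Cluster-16487.145300) fell from 38.88, 17.84 and 14.06 FPKM in CO2 to 0.61, 0.62 and 0.64 FPKM in CO2+1-MCP (log2 fold change -5.49, adjusted p = 0.0315). The most abundant member, pectinesterase 8 (Cluster-16487.109743), had 497.61, 1459.52 and 1546.44 FPKM in CO2 and 2115.16, 2638.28 and 1507.88 FPKM in CO2+1-MCP, with overlap, and 3356.92 to 4549.43 FPKM in CK. Summed over 65 unigenes, the KO entry for pectinesterase was higher in CO2+1-MCP without overlap and did not pass (log2 fold change 0.53, adjusted p = 0.516). The Pfam domain of the same name, summed over 89 unigenes, overlapped (log2 fold change -0.30, adjusted p = 0.598), and the NR entry pectinesterase 3-like, of 1 unigene, fell from 1730, 959 and 658 CPM to 197, 159 and 173 CPM (adjusted p = 0.0404). Of the 37 unigenes, 13 (35.1%) were lower without overlap and 8 (21.6%) were higher, beside 7.54% and 8.72% of all unigenes tested.

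Single unigenes of other wall enzymes were lower without reaching the threshold in the fit of 6 libraries. Xyloglucan endotransglucosylase/hydrolase 10 (XTH10, Cluster-16487.115103), which cuts and rejoins xyloglucan, had 13922.15, 6962.41 and 3783.11 FPKM in CO2 and 666.03, 636.62 and 640.81 FPKM in CO2+1-MCP. The CO2+1-MCP replicates were nearly equal and lay above the 122.54 to 134.12 FPKM of CK. Its adjusted p was 0.0514 (log2 fold change -3.91), and its NR entry, summed over 12 unigenes, passed with 0.0362. A β-galactosidase (Cluster-16487.116597), which removes galactose side chains from pectin, had 5158.58, 3258.69 and 2729.30 FPKM in CO2 and 1382.31, 573.33 and 1659.60 FPKM in CO2+1-MCP (log2 fold change -1.81, adjusted p = 0.172). A pectate lyase (Cluster-16487.110990) had 4541.61, 2156.41 and 1141.89 FPKM in CO2 and 863.12, 769.20 and 681.74 FPKM in CO2+1-MCP, where the latter were also below the 859.41 to 1069.22 FPKM of CK except for replicate A, which lay in that range. Neither overlapped between the treatments. None of 72 XTH, 48 β-galactosidase, 22 pectate lyase or 125 cellulose synthase unigenes was called. Lower without overlap were 27.8% of the XTHs, 25.0% of the β-galactosidases and 27.3% of the pectate lyases, and higher were 6.94%, 4.17% and 18.2%, beside 7.54% lower and 8.72% higher of all unigenes tested. Of the cellulose synthases, which build the wall, 5 (4.0%) were lower and 18 (14.4%) higher without overlap, and the median log2 fold change was 0.39.

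**Figure D3:**
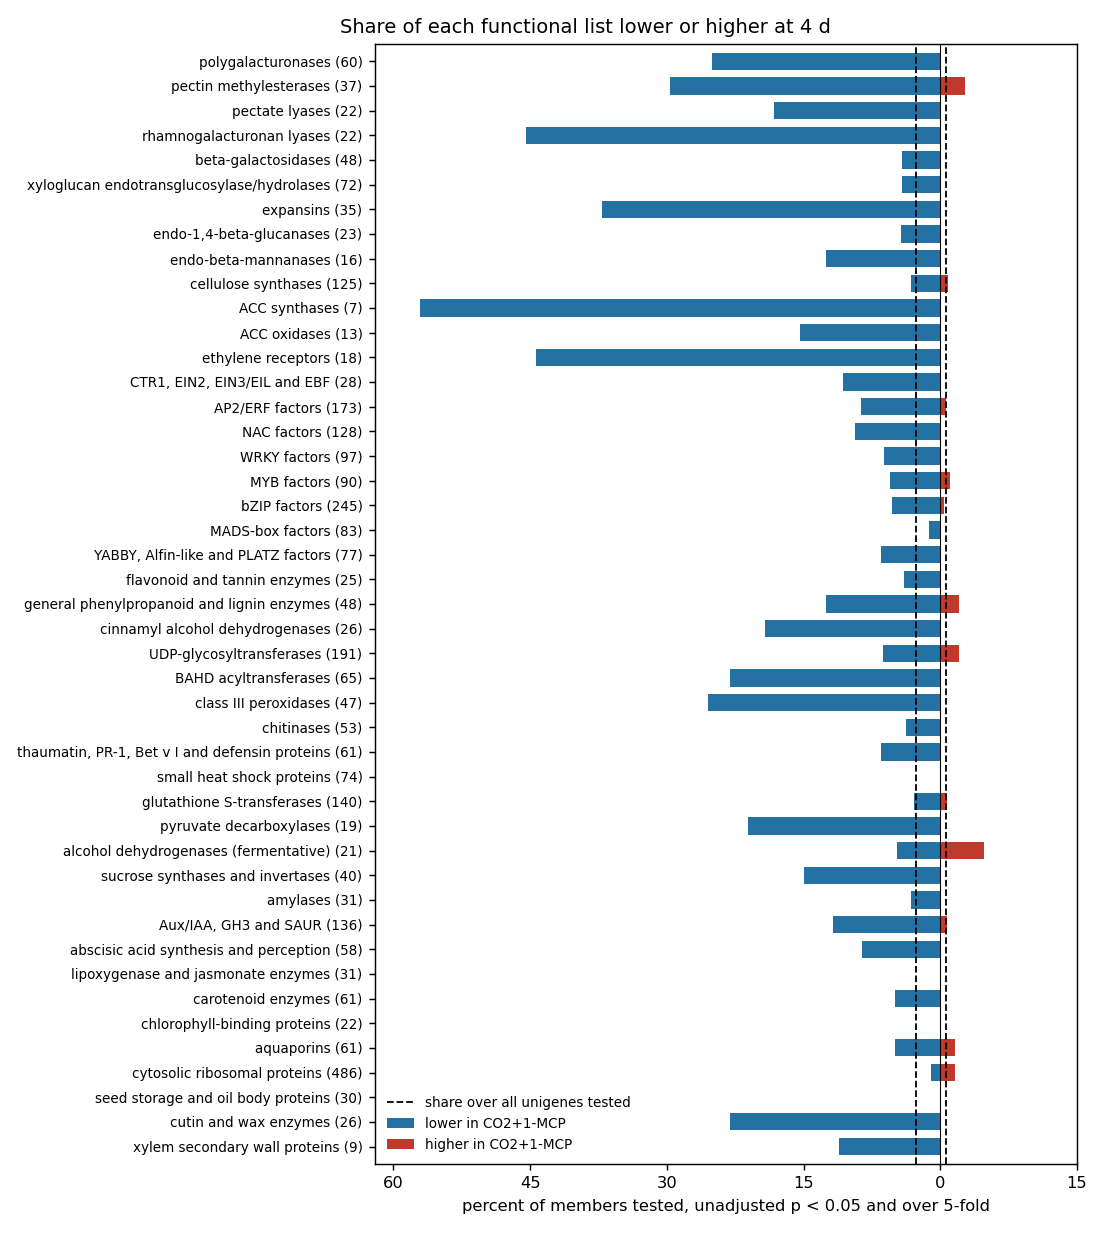
Percent of the tested members of each of 45 functional lists (y axis, number tested in brackets) that had an unadjusted p under 0.05 and were more than 5-fold lower (blue, to the left) or higher (red, to the right) in CO2+1-MCP than in CO2; dashed lines give the share over all unigenes tested (2.7% lower and 0.657% higher). ACC synthases (57.1% of 7), rhamnogalacturonan lyases (45.5% of 22), ethylene receptors (44.4% of 18) and expansins (37.1% of 35) have the longest blue bars, and small heat shock, jasmonate, chlorophyll-binding and seed storage lists have none.

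Some members of enzyme families that act on alcohols and phenolics fell, while the medians of the cinnamyl alcohol dehydrogenases (0.14) and BAHD acyltransferases (0.10, log2 fold change) were close to the 0.09 of all unigenes tested. Of 26 cinnamyl alcohol dehydrogenase unigenes, 5 were called lower, all annotated as mannitol dehydrogenase, and none higher, beside 0.302% and 0.00321% of all unigenes. The most abundant (Cluster-16487.80669) had 2846.81, 1792.19 and 1187.59 FPKM in CO2 and 77.25, 127.83 and 79.40 FPKM in CO2+1-MCP, against 58.50 to 60.23 FPKM in CK (log2 fold change -4.51, adjusted p = 0.0351). All CO2+1-MCP libraries were above CK, and replicate B was the highest of them. The next in abundance, Cluster-16487.128931, fell from 1645.49, 656.37 and 677.31 FPKM to 65.46, 30.73 and 66.31 FPKM. The family includes both the last enzyme of lignin monomer synthesis and dehydrogenases of other alcohols, and the annotation does not settle which these are.

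BAHD acyltransferases, which move acyl groups from coenzyme A to alcohols and phenolics, fell in 7 of 65 unigenes, beside 0.302% of all unigenes. Without overlap 17 (26.2%) were lower and 7 (10.8%) higher, beside 7.54% and 8.72% of all tested. The most abundant of them, Cluster-16487.13726, had 493.07, 249.51 and 127.27 FPKM in CO2 and 2.20, 5.18 and 2.11 FPKM in CO2+1-MCP (log2 fold change -6.73, adjusted p = 0.0344). A unigene annotated as shikimate O-hydroxycinnamoyltransferase (Cluster-16487.25069) had 497.42, 195.30 and 57.59 FPKM in CO2 and 2.42, 1.61 and 1.78 FPKM in CO2+1-MCP. The KO entry of the same name did not contain it, and the 30 unigenes of that entry summed to 14.8, 26.8 and 32.6 CPM in CO2 and 51.0, 43.5 and 46.1 CPM in CO2+1-MCP, higher without overlap but not past the test (adjusted p = 0.279). Class III peroxidases, which oxidize phenolics with hydrogen peroxide, fell in 4 of 47 unigenes, beside the same 0.302%, and the most abundant (Cluster-16487.65626) had 743.91, 296.51 and 162.37 FPKM in CO2 and 7.32, 6.25 and 5.65 FPKM in CO2+1-MCP (adjusted p = 0.0341). A cinnamoyl-CoA reductase (Cluster-16487.119158) had 56.31, 34.21 and 22.74 FPKM in CO2 and 2.96, 4.93 and 2.83 FPKM in CO2+1-MCP, without overlap (adjusted p = 0.0608). Of 25 flavonoid and tannin unigenes, listed by KO number, none was called, beside 0.302% of all unigenes called lower. Without overlap 3 were lower and 7 (28.0%) higher, beside 7.54% and 8.72% of all unigenes tested, and the median log2 fold change was 0.18. That list did not hold the unigenes described as leucoanthocyanidin dioxygenase, an enzyme name of the anthocyanin route. Summed over 7 unigenes and chosen after its values were seen, the NR entry of that name fell from 711, 334 and 128 CPM to 4.46, 6.55 and 4.07 CPM (log2 fold change -6.55, adjusted p = 0.0253), and a second such entry, of 1 unigene, fell by 7.95 on the log2 scale (adjusted p = 0.0333).

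Single genes of abscisic acid, gibberellin and auxin fell. The 9-cis-epoxycarotenoid dioxygenase unigene Cluster-16487.207033, whose enzyme makes the first committed step towards abscisic acid, had 269.53, 139.05 and 99.35 FPKM in CO2 and 2.19, 3.59 and 3.68 FPKM in CO2+1-MCP. Its KO entry fell by 4.64 on the log2 scale (adjusted p = 0.0384). Of 58 abscisic acid unigenes (median log2 fold change -0.17) this unigene was the only one called, beside 0.302% of all unigenes called lower. Gibberellin 2-oxidase 2 (Cluster-16487.45806), which inactivates gibberellins, had 145.99, 77.66 and 58.48 FPKM in CO2 and 6.98, 3.94 and 4.84 FPKM in CO2+1-MCP, and its KO entry fell by 4.09 (adjusted p = 0.0275). Of 136 Aux/IAA, GH3 and SAUR unigenes of the auxin response, 5 were called lower, beside 0.302% of all unigenes. Without overlap 29 (21.3%) were lower and 8 (5.88%) higher, beside 7.54% and 8.72%, and the median log2 fold change was -0.07. The called ones included an auxin-responsive protein (Cluster-35338.0) with 43.44, 19.44 and 8 FPKM in CO2 and 0.49, 0 and 0.44 FPKM in CO2+1-MCP. None of 31 jasmonate enzyme unigenes was called, and without overlap none was lower and 8 (25.8%) were higher, beside 7.54% and 8.72% of all unigenes tested. The allene oxide cyclase Cluster-16487.141491 had 46.35, 122.70 and 105.15 FPKM in CO2 and 154.32, 246.07 and 147.39 FPKM in CO2+1-MCP (adjusted p = 0.696), and CO2 A was the lowest library.

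Of 3264 KO entries tested, 8 (0.245%) were lower in CO2+1-MCP at an adjusted p under 0.05 and more than 2-fold, and none was higher (the lowest adjusted p of a higher entry was 0.0742). No entry was called lower without any 1 of the CO2+1-MCP replicates, and 22 were without CO2 A, 2 without CO2 B and 64 without CO2 C. Besides those for rhamnogalacturonan endolyase, 9-cis-epoxycarotenoid dioxygenase and gibberellin 2-oxidase, 3 belonged to lipid metabolism. Aldehyde decarbonylase, which makes the alkanes of cuticular wax, had 207, 65.8 and 29.7 CPM in CO2 and 1.21, 0.917 and 0.92 CPM in CO2+1-MCP (log2 fold change -6.86). Fatty acid ω-hydroxylase, an enzyme of cutin and suberin synthesis, had 159, 59.3 and 31.1 CPM in CO2 and 1.87, 2.23 and 1.16 CPM in CO2+1-MCP (log2 fold change -5.79). In each, CO2 A was the highest and CO2 C the lowest of its group, and all were above CO2+1-MCP. The ω-6 fatty acid desaturase, which makes linoleic acid, had 328, 137 and 132 CPM in CO2 and 21.9, 21.3 and 20.4 CPM in CO2+1-MCP, where CK had 22.9 to 23.5 CPM. The adjusted p of all 3 was 0.0384, as was that of L-aspartate oxidase, the first enzyme of NAD synthesis from aspartate, which had 34.0 to 85.7 CPM in CO2 and 4.39 to 5.37 CPM in CO2+1-MCP, below the 9.38 to 9.99 CPM of CK. The eighth entry, protein glucosyltransferase, rested on 2 unigenes.

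Single unigenes of wax synthesis were lower too. The ECERIFERUM 1-like unigene Cluster-16487.2984 had 105.80, 33.59 and 14.92 FPKM in CO2 and 0.42, 0.23 and 0.40 FPKM in CO2+1-MCP (adjusted p = 0.0386). ECERIFERUM 3 (Cluster-16487.178842), which was chosen after its values were seen, had 59.82, 36.25 and 41.92 FPKM in CO2 and 1.65, 1.47 and 1.72 FPKM in CO2+1-MCP, with a narrow spread in both groups. Its log2 fold change of -5.04 ± 0.39 (SE) had an adjusted p of 0.0289, and CK had at most 0.14 FPKM. Wax and cutin are made by the outer cell layer, and the labels give flesh as the source, so the levels of other tissue markers are given beside it. A list of 26 tested cutin and wax unigenes, which did not hold ECERIFERUM 3, had 1 called lower, beside 0.302% of all unigenes. Without overlap 9 (34.6%) were lower and none higher, beside 7.54% and 8.72% of all unigenes tested. The summed FPKM of this list was 216 to 437 in CO2, 122 to 135 in CO2+1-MCP and 118 to 129 in CK. The seed storage and oil body list (30 tested) summed to 458 to 509 FPKM in CO2 and 403 to 467 FPKM in CO2+1-MCP, and the xylem list (9 tested) to 68.9 to 73.8 and 56.5 to 76.9 FPKM. No member of either was called, and the part of other tissues in the result was not tested.

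**Figure D4:**
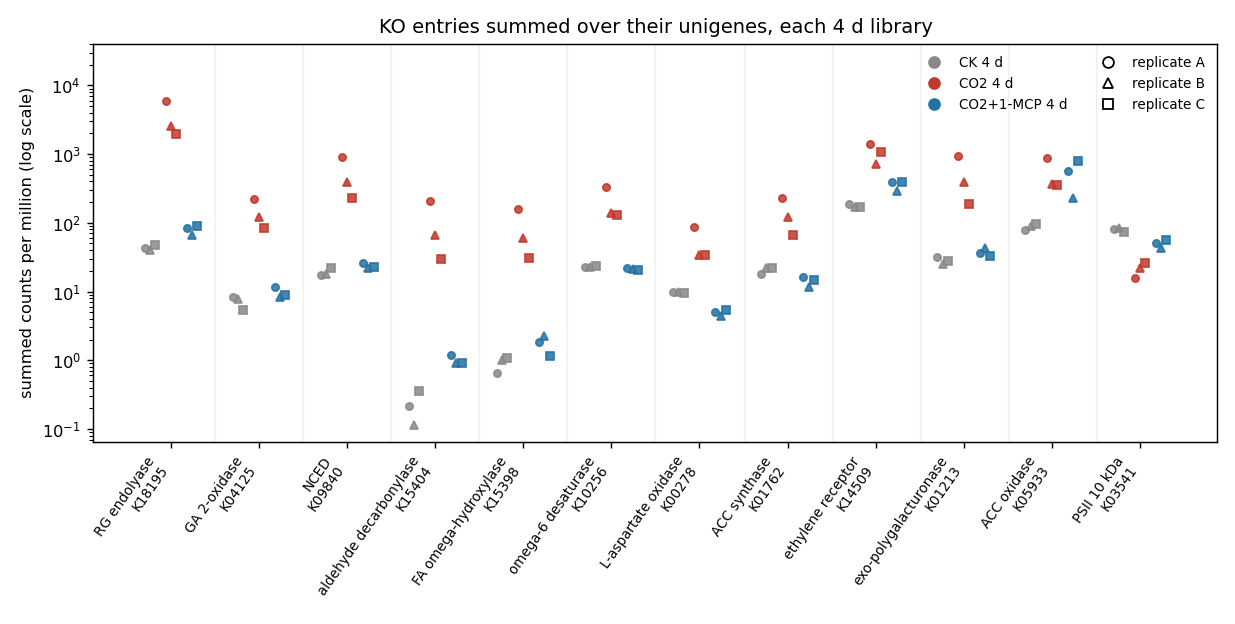
CPM summed over the unigenes of 12 KO entries (y axis, log scale) in the 9 libraries at 4 d, with colours and symbols for treatment and replicate as in the key; the first 7 entries are called lower in CO2+1-MCP, and the last 5 are ACC synthase, ethylene receptor, exo-polygalacturonase, ACC oxidase and the photosystem II 10 kDa protein, none of which is called. The CO2 libraries lie above the other 2 groups in each entry except ACC oxidase, where both treatments lie above CK, and the photosystem II protein, where CO2 lies lowest (15.7 to 26.0 CPM).

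In each transcription factor list at most 1 unigene was called, beside 0.302% of all unigenes called lower. Those called were at low levels. An AGL62-like MADS-box unigene (Cluster-16487.2978) had 23.65, 10.55 and 6.79 FPKM in CO2 and 0.13, 0.08 and 0 FPKM in CO2+1-MCP, and a MYB315-like unigene (Cluster-16487.218092) had 32.93, 12.64 and 4.08 against 0.14, 0.27 and 0 FPKM. Both were called (adjusted p = 0.0315 and 0.036) and were at 0 in CK. Each was the only called member of its list, beside 0.302% of all unigenes called lower. Of 83 MADS-box unigenes 2 (2.41%) were lower and 7 (8.43%) higher without overlap, with 16.7% and 6.67% of 90 MYB unigenes. The NAC unigene Cluster-16487.106118 had 98.36, 53.67 and 46.53 FPKM in CO2 and 16.47, 9.47 and 13.02 FPKM in CO2+1-MCP, in the range of 8.63 to 13.30 FPKM of CK but for replicate A. It missed the threshold (adjusted p = 0.0814), as did the bZIP unigene Cluster-16487.124578 (25.22 to 91.11 against 2.82 to 3.61 FPKM, adjusted p = 0.0544) and the YABBY unigene Cluster-16487.178887, annotated as filamentous flower (23.79 to 68.41 against 3.94 to 5.33 FPKM, adjusted p = 0.0734). Each of these 3 passed in the fit over all 7 groups. No member of the NAC (128 tested), WRKY (97), bZIP (245) or YABBY, Alfin-like and PLATZ (77) lists was called in the fit of 6 libraries, while 19.5%, 13.4%, 13.9% and 13% were lower and 3.12%, 3.09%, 8.16% and 3.90% were higher without overlap (7.54% and 8.72% of all unigenes tested). The persimmon NR entry WRKY3, summed over 4 unigenes, fell from 14.8, 11.3 and 10.6 CPM to 2.65, 2.10 and 1.65 CPM (adjusted p = 0.0353). The brassinosteroid factor BZR1 homolog 4 (Cluster-16487.206771), chosen after its values were seen, fell from 39.24, 17.92 and 13.41 FPKM to 0.77, 0.45 and 1.03 FPKM.

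Genes of defence, sugar and pigment metabolism gave few calls, beside 0.302% of all unigenes called lower and 0.00321% called higher. At these shares, lists of such sizes would hold few or no calls in any case. A defensin unigene (Cluster-16487.3013), a small antimicrobial protein, had 256.31, 103.82 and 52.83 FPKM in CO2 and 0, 0 and 1.03 FPKM in CO2+1-MCP (adjusted p = 0.0289). The list of thaumatin, PR-1, Bet v I and defensin proteins did not hold this unigene, and none of its 61 tested members was called, with a median log2 fold change of 0. The aquaporin NIP1-1-like unigene Cluster-16487.90877, of the channels that pass small solutes such as boric acid, had 325.56, 116.34 and 60.63 FPKM in CO2 and 2.49, 3.34 and 6.75 FPKM in CO2+1-MCP, and its NR entry fell by 4.95 on the log2 scale (adjusted p = 0.0352). A glutathione S-transferase (Cluster-16487.3093) fell from 107.15, 33.46 and 20.93 FPKM to 0.30, 0.47 and 1.00 FPKM (adjusted p = 0.036). Of 140 glutathione S-transferase unigenes tested, 1 was called lower, beside 0.302% of all unigenes. Without overlap 5 (3.57%) were lower and 16 (11.4%) higher, beside 7.54% and 8.72% of all unigenes tested, and their median log2 fold change was 0.18. Pyruvate decarboxylases, which open the route from pyruvate to acetaldehyde and ethanol, had 12 of 19 unigenes lower and none higher without overlap (7.54% and 8.72% of all unigenes tested), but none was called. The unigene Cluster-16487.93437 had 413.97, 132.96 and 127.65 FPKM in CO2 and 53.06, 21.63 and 55.39 FPKM in CO2+1-MCP, both above the 16.25 to 17.09 FPKM of CK (adjusted p = 0.168). A vacuolar invertase (Cluster-16487.110206), which splits sucrose, had 581.06, 331.53 and 170.20 FPKM in CO2 and 84.15, 66.42 and 84.51 FPKM in CO2+1-MCP, and the phytoene synthase Cluster-16487.104729, which opens carotenoid synthesis, had 359.08, 201.21 and 136.81 against 90.19, 51.84 and 84.11 FPKM. Neither passed (adjusted p = 0.131 and 0.186). The KO entry of the invertase, summed over 66 unigenes, went the other way. It had 5830, 9980 and 9960 CPM in CO2 and 12400, 13400 and 11700 CPM in CO2+1-MCP, without overlap (adjusted p = 0.597). The sucrose synthase entry was lower without overlap (log2 fold change -1.15, adjusted p = 0.195). In the list of both, none was called. Without overlap 16 unigenes were lower and 7 (17.5%) higher, beside 7.54% and 8.72% of all tested. Of 61 carotenoid unigenes 26.2% were lower and 3.28% higher without overlap, beside 7.54% and 8.72% of all tested, and none was called. None of 53 chitinases was called, and the most abundant (Cluster-16487.111174) had 31975.36, 67094.32 and 113132.14 FPKM in CO2 and 128619.41, 62907.09 and 116811.65 FPKM in CO2+1-MCP, with overlap.

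The abundant called unigenes also held members with no known function. Of the 188, 144 had an NR hit (76.6%, beside 83.4% of all tested), 54 a KO number and 9 a hit to a persimmon protein, and 46 fell in at least 1 of the 45 lists. Cluster-16487.41804 had 243.47, 139.26 and 57 FPKM in CO2 and no read in any CO2+1-MCP or CK library, and with a floor of 3 reads over the group it was at least 3180-fold lower. Cluster-16487.205433 had 246.30, 151.09 and 91 FPKM in CO2 and likewise none elsewhere at 4 d, at least 635-fold lower. The first is annotated only as a hypothetical protein and the second not at all. Cluster-16487.32150, an uncharacterized protein, had 131.70, 34.21 and 24.84 FPKM in CO2 and 0.18, 0 and 0.12 FPKM in CO2+1-MCP (adjusted p = 0.0289). A pair of unigenes annotated as 13S globulin basic chain, a name given to a seed storage protein of the cupin family, fell too, and both were chosen after their values were seen. Cluster-16487.21336 had 1556.79, 675.79 and 317.10 FPKM in CO2 and 13.08, 21.39 and 13.85 FPKM in CO2+1-MCP, and neither was matched by the seed storage list.

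The level of the 188 unigenes in CO2+1-MCP was also compared with the untreated control. In 90 of them all CO2+1-MCP libraries were above all CK libraries at 4 d (19.2% of all unigenes tested were), in 9 they were below (7.34%), and in 89 they overlapped. The median over the 188 of the mean FPKM was 0.125 in CK at 4 d, 0.402 in CO2+1-MCP and 27.4 in CO2. In 51 no read was assigned in CK at 4 d, and in 3 none in CO2+1-MCP. Endoglucanase, rhamnogalacturonan lyase, expansin-A1 and ECERIFERUM 3, with the values given above, were among the 90 that lay above CK.

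Few functions passed the test as higher in CO2+1-MCP. An ABC transporter unigene (Cluster-16487.178844, annotated as ABC transporter I family member 17-like), chosen after its values were seen, had 0.87, 1.89 and 0.97 FPKM in CO2 and 26.83, 27.29 and 27.47 FPKM in CO2+1-MCP. The CO2+1-MCP replicates were almost equal, and CK lay between the treatments at 14.10 to 15.53 FPKM (log2 fold change 4.29 ± 0.41, SE, adjusted p = 0.0289). A unigene annotated as heavy metal-associated isoprenylated plant protein 39-like (Cluster-16487.69689), also chosen after its values were seen, had 0.45, 0.53 and 0.50 FPKM in CO2 and 6.83, 5.49 and 6.98 FPKM in CO2+1-MCP (adjusted p = 0.0361). Of 19991 NR descriptions tested, 116 (0.58%) were lower and 4 (0.02%) higher (4.9% and 1.2% in the fit over all 7 groups), and the higher ones were these 2, a hypothetical protein and a pathogenesis-related PR-1 type protein. The PR-1 entry had 47.6, 53.4 and 81.6 CPM in CO2 and 218, 158 and 252 CPM in CO2+1-MCP (log2 fold change 1.61, adjusted p = 0.0404).

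Other higher values did not pass the test in the fit of 6 libraries. The photosystem II 10 kDa entry had 15.7, 21.7 and 26.0 CPM in CO2 and 50.2, 43.2 and 56.3 CPM in CO2+1-MCP (adjusted p = 0.0742), still below the 73.7 to 83.4 CPM of CK. GDP-L-galactose phosphorylase, an enzyme of ascorbate synthesis, had 264 CPM in CO2 A, up to 732 CPM in the other CO2 replicates and 1140 to 1320 CPM in CO2+1-MCP (adjusted p = 0.323). Aquaporins formed the list with the largest share of higher members, with 25 of 61 higher and 4 lower without overlap, beside 8.72% and 7.54% of all tested. Their summed FPKM was 5294, 13089 and 13473 in CO2 and 17612, 14427 and 17355 in CO2+1-MCP, so that CO2 A was again the lowest, and none was called higher. A defensin Ec-AMP-D2-like unigene (Cluster-16487.107012) had 32.18, 386.13 and 252.34 FPKM in CO2 and 679.25, 1224.01 and 580.67 FPKM in CO2+1-MCP (adjusted p = 0.445). In the fit over all 7 groups 18 KO entries (0.54%) were higher and 128 (3.84%) lower, and the higher ones included the photosystem II 10 kDa protein, GDP-L-galactose phosphorylase, phospholipase A1, histone H4 and a plant cyclin D3. Of 4565 Pfam domains none was called in either direction in the fit of 6 libraries (499 had an unadjusted p under 0.05, and the lowest adjusted p was 0.0753), whereas the fit over all 7 groups called 185 (3.95%) lower and 37 (0.791%) higher and DESeq2 called 136 and 9. The Pfam domain with the lowest p was the rhamnogalacturonan lyase domain, at 5640, 2450 and 1890 CPM in CO2 and 105, 60.1 and 104 CPM in CO2+1-MCP.

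The same comparison was made at 1 d, when the fruit had just left the containers. At an unadjusted p under 0.05, 5123 of 56191 unigenes differed at 1 d and 4896 of 62228 at 4 d. After adjustment and past 5-fold, at 1 d 4 unigenes (0.00712%) were lower and 1 (0.00178%) higher in CO2+1-MCP than in CO2, and of the 188 unigenes called at 4 d 52 could be tested and none was called. Their median log2 fold change at 1 d was 0.08, beside -0.01 over all unigenes tested on both days. A test of the change of the difference from 1 d to 4 d in the 12 libraries called 20 unigenes (0.0258% of 77447) with a more negative difference at 4 d and 2 (0.00258%) with a more positive one. With the replicate letter as a block these counts were 2 and 1, and with 1 library left out no unigene had a more negative difference except without CO2 A or CO2 C at 4 d (52 and 274) or CO2+1-MCP C at 1 d (19). Expansin-A1 (Cluster-16487.137674) had 2.84, 5.82 and 3.60 FPKM in CO2 at 1 d and 7.14, 3.25 and 6.48 FPKM in CO2+1-MCP at 1 d, which overlapped. The difference between the treatments changed by -6.97 ± 0.86 on the log2 scale (SE, adjusted p = 0.0463). Rhamnogalacturonan lyase (Cluster-16487.16332) had 0.23 to 1.03 FPKM in CO2 and 0.44 to 1.24 FPKM in CO2+1-MCP at 1 d, and the mannitol dehydrogenase Cluster-16487.80669 had 44.08 to 50.59 and 32.98 to 70.28 FPKM. A blue copper protein (Cluster-16487.150765) had 1.44 to 2.40 FPKM in CO2 and 4.44 to 6.11 FPKM in CO2+1-MCP at 1 d, higher without overlap, before it was lower at 4 d.

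The ABC transporter Cluster-16487.178844 had 40.64, 34.49 and 34.31 FPKM in CO2 and 19.52, 21.30 and 20.80 FPKM in CO2+1-MCP at 1 d, so that CO2 was the higher treatment at 1 d and the lower at 4 d. Its difference changed by 5.03 ± 0.44 on the log2 scale (SE, adjusted p = 0.00562). Cluster-16487.69689 had 9.43 to 16.65 FPKM in CO2 and 7.56 to 11.25 FPKM in CO2+1-MCP at 1 d, with overlap, and its difference changed by 3.99 (adjusted p = 0.0463). At 1 d both treatments were above CK for each of them (8.02 to 9.93 and 1.06 to 2.32 FPKM in CK).

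**Figure D5:**
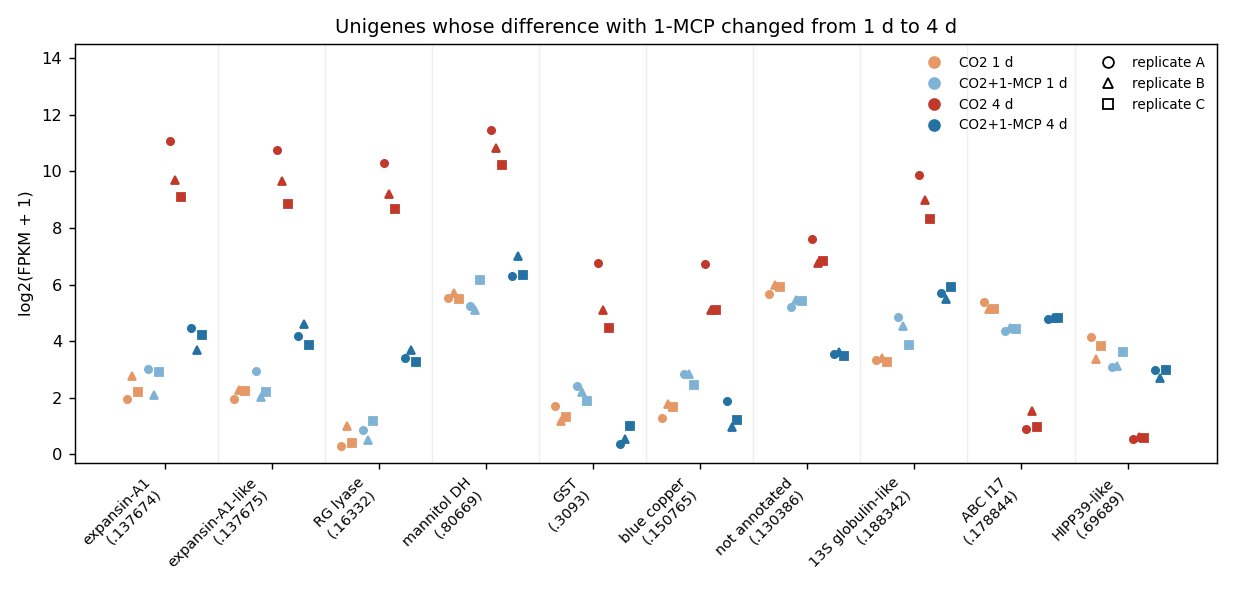
Level of 10 unigenes, as log2(FPKM + 1) on the y axis, in CO2 and CO2+1-MCP at 1 d (light orange and light blue) and 4 d (red and dark blue), with the end of each unigene ID in brackets on the x axis; circles, triangles and squares are replicates A, B and C. In the first 8 the red points lie highest, and in the last 2 they lie lowest. Both 1 d groups lie below the dark blue points in expansin-A1, rhamnogalacturonan lyase and mannitol dehydrogenase, and above them in the unigene without annotation.

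The spread of CO2+1-MCP B was widest in single unigenes and smaller in KO sums. Over 44834 unigenes, the SD of its log2 deviation from the mean of the other replicates was 1.18, against 0.65 for A and 0.75 for C, and over 3223 KO entries it was 0.62, against 0.29 and 0.38. It was more than 2-fold below both other replicates in 22.3% of unigenes and 8.97% of KO entries, and above both in 5.51% and 0.496%. In 1027 unigenes it lay at least 10 times below both A and C, against 68 to 233 such unigenes in the other libraries, and in 456 at least 10 times above, against 227 to 598 in the other libraries. A Kunitz trypsin inhibitor unigene (Cluster-16487.113250) had 2.89, 1023.53 and 1.31 FPKM in CO2+1-MCP A, B and C and 0, 13.78 and 1.09 FPKM in CO2. Cluster-16487.111261, without annotation, had 210.96, 0 and 248.20 FPKM. Of the 1027, CO2 B was the lowest CO2 library in 679 and the highest in 59. Of the 456 it was the highest in 199 and the lowest in 48, and the shares over all unigenes were not counted. CO2+1-MCP B correlated more closely with CO2 B (0.791) than with its own replicates.

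CO2 A deviated less in single unigenes. Over 42530 unigenes its SD of log2 deviation was 0.81, against 0.67 for B and 0.75 for C, and it was more than 2-fold below both others in 9.45% of unigenes and above both in 2.77%. In CO2 C these shares were 1.94% and 5.65%. Over KO entries the SD was 0.59 for A, 0.34 for B and 0.56 for C. CO2 A had the highest level of most of the called unigenes and the lowest of aquaporins, GDP-L-galactose phosphorylase and chitinases (81207 FPKM summed over the family in CO2 A, against 184559 and 273737 in B and C, and 236633 to 288273 in CO2+1-MCP). Without CO2 A the median log2 fold change of the 188 was -5.24, and with CO2+1-MCP B left out as well it was -5.36, with 187 more than 5-fold lower and adjusted p between 0.0701 and 0.259. The 188 were selected with both libraries in the fit, so these sizes were largely set by that selection. The median coefficient of variation over the 188 was 63.1% in CO2 and 49.0% in CO2+1-MCP.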

How the data were processed

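RNA from persimmon flesh was sequenced as paired-end libraries. The authors assembled the reads de novo with Trinity and annotated the unigenes against NR, Pfam and KEGG. The estimated counts per unigene, which need not be whole, were deposited by the authors with no normalization, and RSEM is named in the submitters' processing notes. The FPKM values were also made by the authors, from these counts and the unigene length. Total estimated counts were 14644843 to 24943140 per library. The authors' files held 0 columns of per-sample values that were left unused.

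Counts were rounded and tested with edgeR 4.0.16 (R 4.3.3, TMM factors, filterByExpr, glmQLFit with the newer dispersion estimate, legacy set to false, although this version defaults to the older one), with only the 6 libraries in the fit. Unigenes were called at an adjusted p under 0.05 and more than 5-fold, and sums per KO, Pfam or NR entry at more than 2-fold. DESeq2 1.42.0 was an alternative. The scripts were tested on simulated data. No value was set by a permutation of 3 against 3 libraries, which cannot go below 0.1. Counting intervals and floors cover counting error only.

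The comparison, the lists and the named unigenes were chosen with earlier results of these data known, and the lists of expansins, β-galactosidases and chlorophyll-binding proteins were completed by NR description after their Pfam domains had matched few unigenes. The unigenes named were, by rule, the 8 lowest and 8 highest changes among abundant unigenes (mean FPKM of at least 50), the most abundant and the lowest-p member of each list, the 5 unigenes that set CO2+1-MCP B and CO2 A most apart in each direction, and the leading unigenes of the test between days. Outside this rule and chosen after their values were seen were Cluster-16487.217861, Cluster-16487.165003, Cluster-16487.128931, Cluster-16487.25069, Cluster-16487.45806, Cluster-16487.178842, Cluster-16487.206771, Cluster-16487.21336, Cluster-16487.188342, Cluster-16487.178844, Cluster-16487.69689 and some of the KO and NR entries.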

Additional observations from a re-analysis of the deposited data

Results flagged for a closer look

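Of the unigenes described above, 10 were singled out because their difference between CO2+1-MCP and CO2 was not the same at 4 d as at 1 d, by a test of that change in the 12 libraries of both treatments and days (edgeR's quasi-likelihood test with Benjamini-Hochberg adjustment, adjusted p = 0.0463 where no other is given). The change is the log2 difference at 4 d minus that at 1 d, and a negative value means that CO2+1-MCP was further below CO2 at 4 d. The 20 negative calls in all became 2 with the replicate letter as a block, and 0 without any 1 of the libraries other than CO2 A and CO2 C at 4 d and CO2+1-MCP C at 1 d. It was -6.97 for expansin-A1 (Cluster-16487.137674), -6.52 for the expansin-A1-like unigene Cluster-16487.137675 and -7.27 for rhamnogalacturonan lyase (Cluster-16487.16332). For the mannitol dehydrogenase Cluster-16487.80669 it was -4.65, and for the 13S globulin unigene Cluster-16487.188342 it was -5.12. The glutathione S-transferase Cluster-16487.3093 had -7.90 (adjusted p = 0.0467), the blue copper protein Cluster-16487.150765 had -6.96, and Cluster-16487.130386, which has no annotation, had -3.53. In Cluster-16487.130386 the level was 49.62 to 61.93 FPKM in CO2 and 36.37 to 43.08 FPKM in CO2+1-MCP at 1 d, and 106.32 to 192.54 and 10.16 to 11.32 FPKM at 4 d. The change was positive for the ABC transporter Cluster-16487.178844 (5.03, adjusted p = 0.00562) and for Cluster-16487.69689 (3.99).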

How the results depend on the processing

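The unigenes and annotation entries that were refitted kept their direction under the alternatives run, except the ACC oxidase KO entry, and unigenes given above by their levels only were not refitted. The log2 fold change of that entry was -0.25, and it was -0.61 to 0.47 with each library left out (0.47 without CO2 A and 0.07 without CO2+1-MCP B) and 0.79 without both. In the fit over all 7 groups it was 0.04 without CO2+1-MCP B, 0.47 without CO2 A and 0.8 without both. The number of calls depended on how the spread was estimated. For unigenes, lower and higher in CO2+1-MCP, DESeq2 called 1240 and 174, the fit over all 7 groups 1443 and 147, no low-count filter 1512 and 326, and the legacy dispersion 0 and 0. DESeq2's size factors in edgeR called 119 lower, and removing the trend with unigene length 4 higher. Leaving out both CO2+1-MCP B and CO2 A called 0 and 0. For KO entries DESeq2 called 105 lower and 3 higher, the fit over all 7 groups 128 and 18, and without both libraries 13 were lower. For Pfam domains DESeq2 called 136 and 9, and the fit over all 7 groups 185 and 37. For NR descriptions DESeq2 called 690 and 45, the fit over all 7 groups 1226 and 299, the legacy dispersion 1 and 0, no filter 290 lower, the length correction 2 higher and a 5-fold threshold 2 higher. For the change from 1 d to 4 d DESeq2 called 793 and 380, no filter 305 and 31, and the fit over all 7 groups 560 and 258. The cause was not tested. Of the medians of functional lists and of all unigenes with a pseudocount of 1 or 0.1, 15 moved and 77 did not, and that of ACC synthases went from -3.94 to -1.81. Of the comparisons of a named unigene with an alternative, 628 kept their side of the threshold, 247 lost the call and 61 gained it.

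In a fit over all 7 groups with libraries left out, chosen after seeing the data, unigenes lower and higher were 1378 and 172 without CO2+1-MCP B, 767 and 58 without CO2 A and 801 and 103 without both. For KO entries these were 134 and 14, 65 and 5, and 69 and 8, for Pfam domains 201 and 52, 92 and 13, and 106 and 16, and for NR descriptions 1258 and 294, 663 and 69, and 717 and 133. Leaving out each library in turn from the fit of 6 gave 0 to 375 unigenes lower and 0 to 5 higher, 0 to 64 and 0 to 3 KO entries, 0 to 65 and 0 to 2 Pfam domains, 0 to 368 and 0 to 7 NR descriptions, and 0 to 274 and 0 to 24 unigenes for the change between days.

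Whether the replicate letters pair the samples was not given in the sources used here. The deviations of same-letter libraries correlated at 0.066 (A), 0.534 (B) and 0.39 (C). Those of different letters correlated at -0.489 to 0.276, and CO2+1-MCP A correlated best with CO2 C (0.276). With the replicate letter as a block 157 unigenes were lower and 1 higher, 22 KO entries were lower, 27 Pfam domains lower and 3 higher, 371 NR descriptions lower and 27 higher, and 2 and 1 unigenes changed between days. The mean correlation of CO2+1-MCP B with its replicates was 0.671 and that of CO2 A 0.804, and as Pearson's correlation of log2(FPKM + 1) they were 0.87 and 0.931. Over unigenes with at least 1 FPKM in 3 libraries that of CO2 A was 0.776. With 3 libraries a group and these depths, weakly expressed unigenes were not tested.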
